A study of Homo sapiens with 18 samples.

Results

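The RB pocket proteins and the CDK inhibitors form the brake on entry into S phase. The 9 genes described here were taken by name: RB1, RBL1 and RBL2, which encode the pocket proteins RB, p107 and p130, CDKN1B and CDKN1C, which encode the Cip/Kip inhibitors p27 and p57, and CDKN2A, CDKN2B, CDKN2C and CDKN2D, which encode the INK4 inhibitors (CDKN2A also encodes ARF). Not every CDK inhibitor gene is among the 9. They are 9 of 62703 genes in the files, and 7 of the 9 had enough counts to be tested. The question the design puts to them is how RNA of the brake differs when EZH2 or its partner E2F1 is depleted, and when the methyltransferase activity of EZH2 is inhibited.

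The cells were MDA-MB-231, an established triple-negative breast cancer line, and their poly(A) RNA gave 10 distinct libraries, 2 in each of 5 groups. Control shRNA, shEZH2 and shE2F1 cells carried a lentiviral short hairpin RNA, with 24 h of transduction and 72 h of selection in puromycin at 2 ug/ml. The paper lists 1 hairpin sequence for each target, so off-target effects of a hairpin cannot be told apart from depletion of its target. DMSO and GSK126 cells were exposed for 72 h to the solvent or to 1 uM GSK126, an inhibitor of the catalytic activity of EZH2, and the labels give them no hairpin. No label says that replicates were separate cultures, so the p-values measure only the spread between these libraries, which may be technical.

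Pocket proteins bind E2F transcription factors and hold their target genes down. Cyclin D with CDK4 or CDK6, and cyclin E with CDK2, phosphorylate the pocket proteins and release E2F. INK4 inhibitors bind CDK4 and CDK6, whereas p27 and p57 act on cyclin E-CDK2 and related complexes. EZH2 is the catalytic subunit of PRC2, which places H3K27me3, a repressive histone mark, and CDKN2A and CDKN1C are textbook PRC2 targets. RBL1 is a textbook E2F target.

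Both hairpin targets were lower in their own knockdown. EZH2 was at 153 and 181 counts per 1000000 (CPM, scaled by TMM) in control shRNA and at 52.6 and 44.8 in shEZH2, a log2 change of -1.79 ± 0.12 (SE). E2F1 was at 143 and 138 CPM in control shRNA and at 26 and 22.5 in shE2F1, a log2 change of -2.54 ± 0.24. E2F1 was also lower in shEZH2, at 62.4 and 32.3 CPM, with a log2 change of -1.59 ± 0.23. EZH2 fell in shE2F1 by 0.37 ± 0.12 on the log2 scale (adjusted p = 0.0227). Libraries held 13198932 to 20055550 expected counts. Of the markers of the line, VIM (1185 to 2860 transcripts per 1000000, TPM) and CD44 (446 to 659 TPM) were high, ESR1 and PGR were at 0.17 TPM or less, CDH1 was at 0.26 to 4.5 TPM, and ERBB2 (20.0 to 35.6 TPM) and EPCAM (12.4 to 37.7 TPM) were present. VIM was lowest in shEZH2, at 1357 and 1185 TPM against 2379 or more in the other libraries, with a log2 change of -1.33 against control shRNA. CDH1 was called higher in both knockdowns, by 2.23 ± 0.50 in shEZH2 and 3.91 ± 0.45 in shE2F1, and EPCAM was called lower in shE2F1 (-1.24 ± 0.13). The part of these marker shifts in the results for the genes below was not tested.

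A change is given below as a log2 change ± SE with its adjusted p from the quasi-likelihood test of edgeR, adjusted over all genes tested. A gene is said to have risen or fallen at an adjusted p under 0.05. The stricter word called is kept for genes that moved over 2-fold with an adjusted p under 0.01. In bulk RNA, a lower level in each cell and fewer cells that hold the transcript cannot be told apart.

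CDKN2A and CDKN2B had no counts. Their expected counts were 0 in all 10 libraries, which, counting error alone considered, leaves room for at most 0.150 to 0.227 CPM depending on the library. CDKN2A lies at chr9:21967752-21995301 and CDKN2B at chr9:22002903-22009305 (GRCh38, both on the minus strand). The line is known to lack this locus. Between FOCAD, at 29 to 63 counts in a library, and TUSC1, at 68 to 214 counts, lay 4681 kb of chromosome 9 with 24 protein-coding genes, and all 24 were at 0 counts in every library. They comprise CDKN2A, CDKN2B, MTAP, which encodes an enzyme of methionine salvage, 16 interferon genes, and others such as DMRTA1 and ELAVL2. Most of the interferon genes are not usually transcribed by unstimulated epithelial cells. The antisense RNA CDKN2B-AS1 was at 0 as well. Of all 75 annotated genes in the stretch, 73 had no count in any library, and the other 2 were processed pseudogenes, KHSRPP1 and CLIC4P1, with 14 and 27.4 expected counts summed over the 10 libraries. No CDKN2A or CDKN2B transcript was therefore detected at this depth in any group, controls included. In a line that lacks the locus, this cannot show how these genes respond to either knockdown or to GSK126. The RNA does not measure the copy number of the locus.

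**Figure D1:**
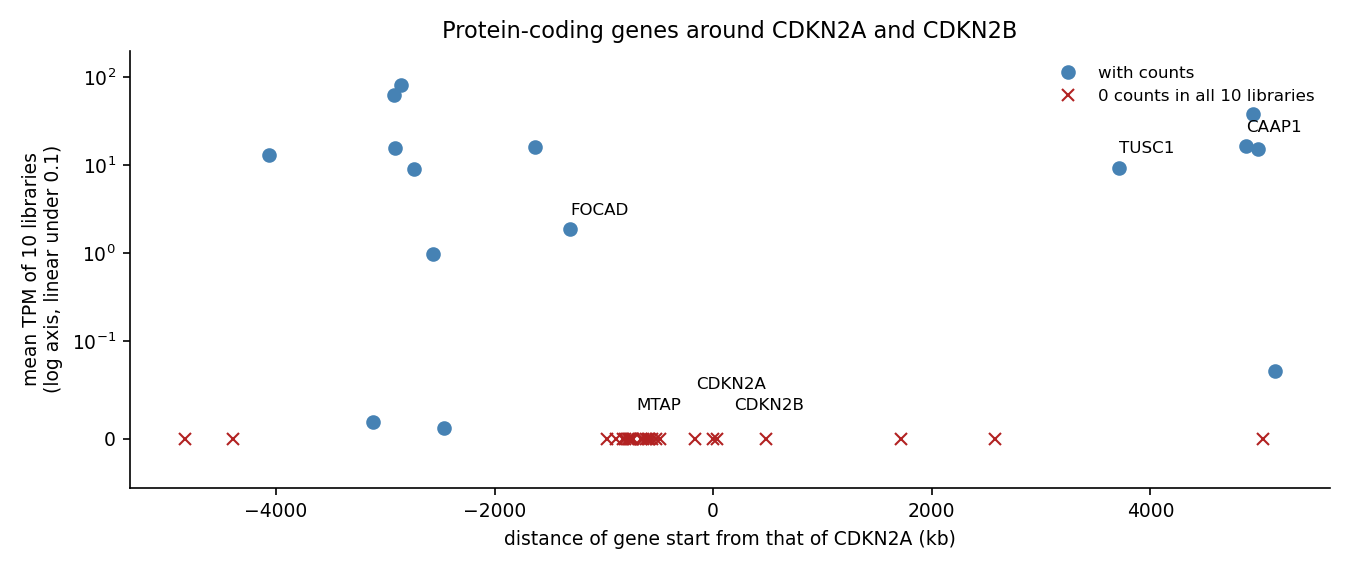
Mean TPM over the 10 libraries (vertical axis, logarithmic above 0.1) of protein-coding genes against the distance in kb of their lower coordinate from that of CDKN2A. Crosses mark genes with 0 counts in all libraries, and the 24 genes between FOCAD and TUSC1 are all crosses.

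In the 7 genes that remain, the level of RNA per length was highest for CDKN2C, at 39.6 to 92.3 TPM over the 10 libraries. CDKN2D spanned 23.9 to 59.7 TPM, CDKN1B 17.3 to 41.2 TPM and CDKN1C 6.87 to 29.5 TPM. Among the pocket proteins, RB1 spanned 17.6 to 28.8 TPM, RBL1 13.6 to 28.3 TPM and RBL2 5.08 to 15.8 TPM. The range of the group means on the log2 CPM scale was widest for CDKN1C (1.99) and narrowest for RB1 (0.37).

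**Figure D2:**
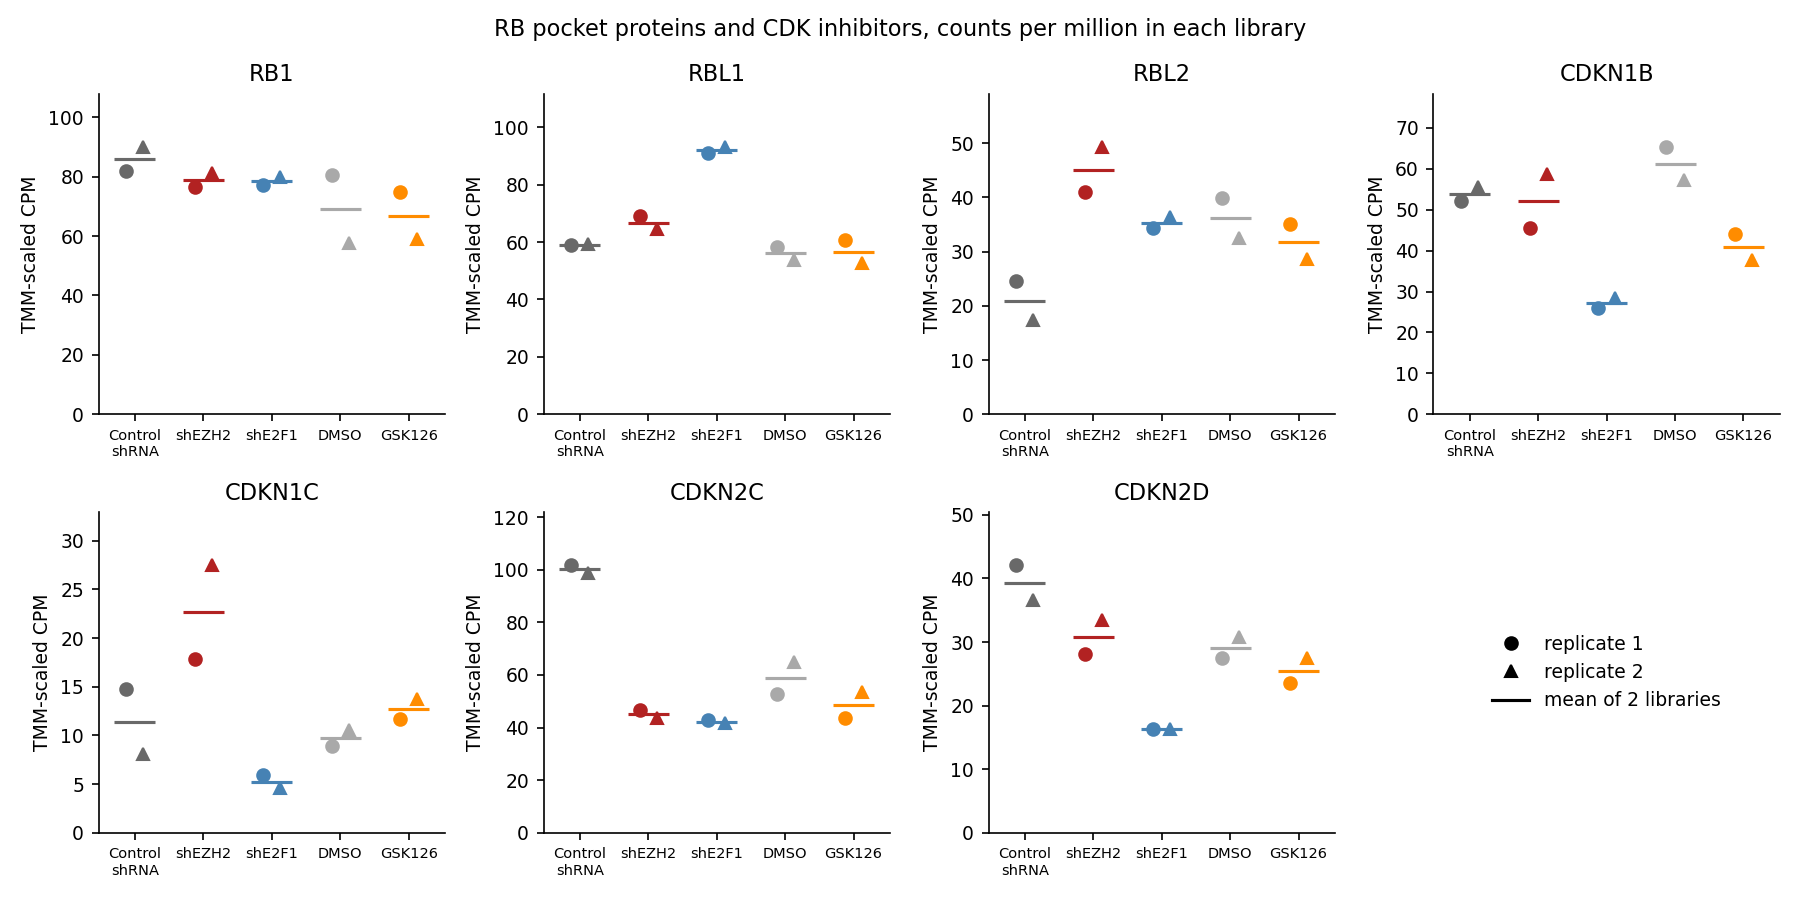
TMM-scaled CPM (vertical axes, from 0) of the 7 genes with counts in each of the 10 libraries, with the mean of the 2 libraries of each group as a line. CDKN2C stands near 100 CPM in control shRNA and below 66 CPM in every other library, and RB1 varies least.

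Because E2F1 was a target of the study, the promoters of the tested genes were read for 4 E2F-type motifs on both strands. The windows were RefSeq promoters on GRCh38.p14, from 250 bases before to 50 after a start, and matches of the 4 motifs did not overlap in them. CDKN1C had no window, and the windows of RB1, CDKN1B and RBL2 lie inside the annotated genes. The only RB1 window, chr13:48476200-48476499, is far from the annotated start of RB1 at 48303744. That of CDKN1B, chr12:12717118-12717417, is also far from its annotated start at 12685498. Sequence at these annotated starts was therefore not read. CDKN2C and RBL2 had more than 1 window each. RBL1 and CDKN2C held matches, 2 each, and the windows read for CDKN1B, CDKN2D, RBL2 and RB1 held none. Both matches of CDKN2C were in the same window, and its other windows held none. The motif TTCCCGC was held by 6.55% of all 35116 windows. The motif TTGGCGC was held by 3.04% of them, the motif TTCGCGC by 2.24% and the motif TTGCCGC by 2.39%, and 13% held at least 1 of the 4. The stretches below lie before the start sites, with the matches in capitals, and are shown because their genes moved in opposite directions in shE2F1. They run from chr20:37096000-37096029 on the minus strand for RBL1, and from chr1:50968563-50968592 and chr1:50968660-50968689 on the plus strand for a CDKN2C start that lies inside the annotated gene.
RBL1: gcagattTTCGCGCgctTTGGCGCaggtgg
CDKN2C, distal: ggagagcgggagGCGGGAAtgagggcgcgg
CDKN2C, proximal: cggcgcccggccTTCCCGCtcccgcggcgc
In the distal CDKN2C stretch the capitals are the reverse complement of TTCCCGC. A match is a run of letters and not evidence of binding.

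RB1 showed no change that passed the test in any comparison as fitted without a correction. It encodes the founding pocket protein and lies at chr13:48303744-48599436 on the plus strand. Its CPM were 81.9 and 90.0 in control shRNA, 76.5 and 81.2 in shEZH2, 77.3 and 79.9 in shE2F1, 80.4 and 57.6 in DMSO and 74.8 and 58.9 in GSK126. The spread between replicates was widest in the drug arm, where replicate 2 was lower in both groups. The log2 change was -0.14 ± 0.09 in shEZH2 (adjusted p = 0.239) and -0.14 ± 0.09 in shE2F1 (adjusted p = 0.261). It was -0.05 ± 0.20 in GSK126. With a correction for GC content and length the change in shEZH2 was -0.35 at an adjusted p of 0.0063, still under 2-fold.

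RBL1 rose with E2F1 knockdown. This gene of p107, a pocket protein that binds mainly E2F4 and E2F5, lies at chr20:36996349-37095997 on the minus strand. Its CPM were 58.9 and 59.2 in control shRNA, 69.0 and 64.5 in shEZH2, 90.9 and 93.1 in shE2F1, 58.3 and 53.8 in DMSO and 60.5 and 52.8 in GSK126. The shE2F1 libraries stood above all others. The log2 change was 0.63 ± 0.09 in shE2F1 (adjusted p = 0.000279, 1.55-fold), and 0.16 ± 0.09 in shEZH2 (adjusted p = 0.155). The difference between the knockdowns passed the test, with shEZH2 lower than shE2F1 by 0.47 ± 0.09 on the log2 scale (adjusted p = 0.00116).

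RBL2 was higher in both knockdowns than in control shRNA. The gene of p130, the pocket protein that is most abundant in resting cells and joins E2F4 and MuvB in the DREAM repressor, lies at chr16:53433977-53491648 on the plus strand. Its CPM were 24.6 and 17.3 in control shRNA, 41 and 49.3 in shEZH2, 34.3 and 36.4 in shE2F1, 39.8 and 32.5 in DMSO and 35.0 and 28.7 in GSK126. Control shRNA was the lowest of the 5 groups, below every other library. RBL2 was called in shEZH2, with a log2 change of 1.09 ± 0.16 (adjusted p = 0.000213, 2.13-fold), and rose in shE2F1 by 0.74 ± 0.16 (adjusted p = 0.00341). These comparisons share the control libraries. The knockdowns differed from each other by 0.35 ± 0.16, which did not pass (adjusted p = 0.0730). Without control shRNA replicate 2 the change in shEZH2 was 0.87, without shEZH2 replicate 2 it was 0.97, and with a correction for GC content and length 0.84, so that under each it was under 2-fold.

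The summed TPM of the 3 pocket proteins was 46.4 and 52.0 in control shRNA, 61.6 and 62.6 in shEZH2, 64.0 and 70.0 in shE2F1, 42.3 and 56.2 in DMSO and 41.5 and 52.3 in GSK126. Both knockdowns lay above control shRNA, and the drug groups overlapped. RB1 made up 53.8% and 57.5% of that sum in control shRNA, 44.7% and 45.0% in shEZH2, and 41.2% in both shE2F1 libraries. RBL2 made up 14.8% and 11% in control shRNA, 22.4% and 25.3% in shEZH2, and 18.2% and 18.3% in shE2F1. RBL1 made up 31.4% and 31.5% in control shRNA, 32.9% and 29.8% in shEZH2, and 40.6% and 40.5% in shE2F1. The share of RB1 was thus lower in both knockdowns than in control shRNA while its CPM did not pass the test. In DMSO, RB1 made up 49.4% and 41.6%, RBL1 28.5% and 32.8%, and RBL2 22.1% and 25.6%. In GSK126, RB1 made up 47.1% and 46.4%, RBL1 31.8% and 32.8%, and RBL2 21.2% and 20.8%. Control shRNA thus had the highest share of RB1 and the lowest share of RBL2 of the 5 groups. These shares are descriptions with 2 libraries a group.

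**Figure D3:**
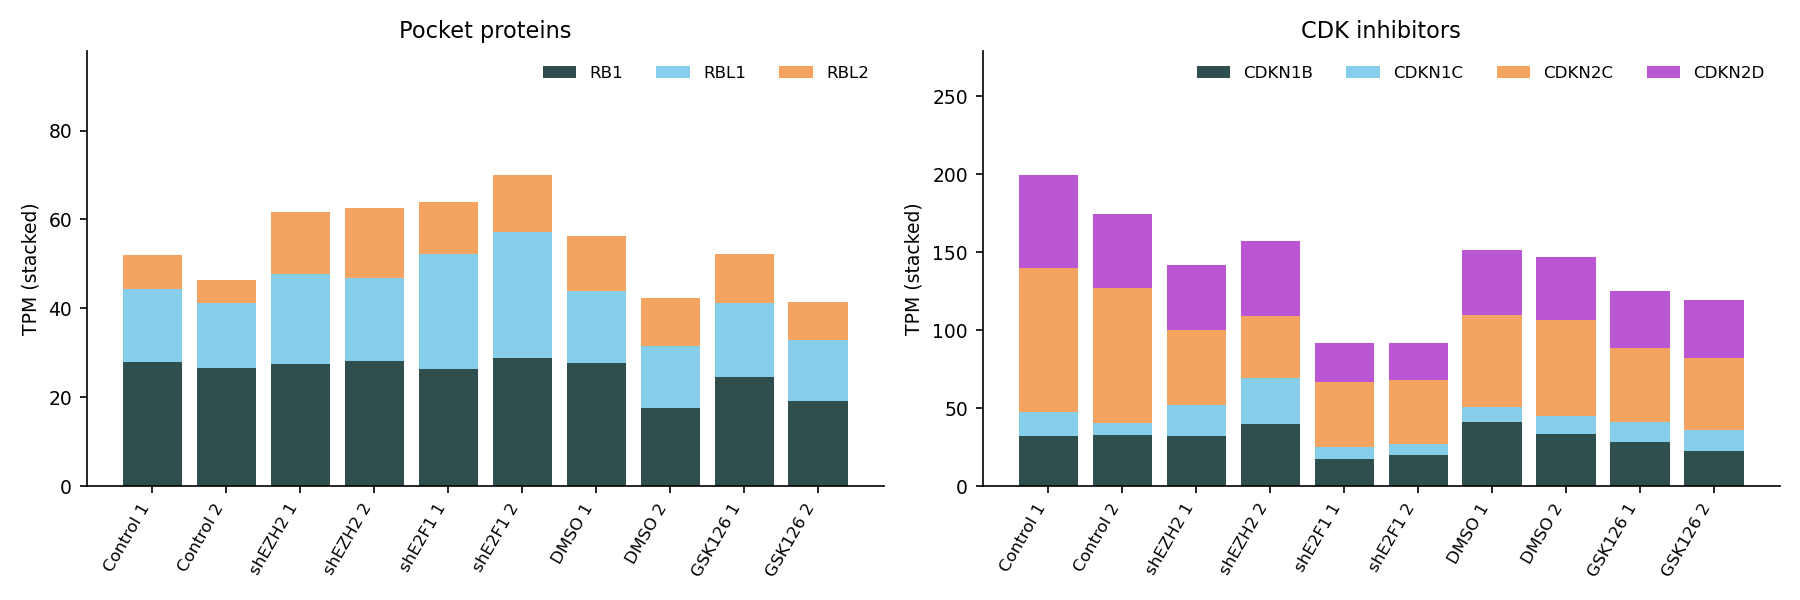
Stacked TPM (vertical axes, from 0) of the 3 pocket protein genes and of the 4 CDK inhibitor genes of the chosen list with counts, a bar for each of the 10 libraries. The pocket protein sum is 46.4 and 52.0 in control shRNA against 64.0 and 70.0 in shE2F1. The sum of these 4 inhibitor genes, which are not all CDK inhibitors, is lowest in shE2F1, at 91.7 and 92.0.

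CDKN2C, the gene of p18, was lower in both knockdowns. It is an INK4 inhibitor of CDK4 and CDK6 and lies at chr1:50960745-50974634 on the plus strand. Its CPM were 101.6 and 98.6 in control shRNA, 46.7 and 43.7 in shEZH2, 42.9 and 41.7 in shE2F1, 52.8 and 65.1 in DMSO and 43.7 and 53.5 in GSK126. Both control shRNA libraries stood above every other library. The log2 change was -1.16 ± 0.09 in shEZH2 (adjusted p = 5.74e-06) and -1.25 ± 0.09 in shE2F1 (adjusted p = 4.15e-06), both called and against the same controls. The knockdowns differed by 0.09 ± 0.10 (adjusted p = 0.442). With a correction for GC content and length the change in shEZH2 was -0.77, under 2-fold, at an adjusted p of 4.1e-05, and that in shE2F1 was -1.23.

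CDKN2D, the gene of p19, fell most with E2F1 knockdown. This INK4 inhibitor lies at chr19:10566460-10569059 on the minus strand. Its CPM were 42.0 and 36.6 in control shRNA, 28.2 and 33.4 in shEZH2, 16.3 in both shE2F1 libraries, 27.5 and 30.7 in DMSO and 23.5 and 27.5 in GSK126. The shE2F1 libraries stood below all others. The gene was called in shE2F1, with a log2 change of -1.28 ± 0.13 (adjusted p = 2.64e-05). It fell in shEZH2 by 0.36 ± 0.13 on the log2 scale (adjusted p = 0.0289), but that value turned to 0.17 with the correction for GC content and length. Its adjusted p was 0.15 without control shRNA replicate 1 and 0.17 without shEZH2 replicate 1. The difference between the knockdowns was 0.92 ± 0.13, with shEZH2 higher (adjusted p = 0.000131).

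CDKN1B, the gene of p27, fell with E2F1 knockdown and not detectably with EZH2 knockdown. It lies at chr12:12685498-12722369 on the plus strand. Its CPM were 52.1 and 55.5 in control shRNA, 45.5 and 58.8 in shEZH2, 26 and 28.3 in shE2F1, 65.3 and 57.2 in DMSO and 44 and 37.6 in GSK126. The shE2F1 libraries were the lowest, and the GSK126 libraries were the next lowest. The log2 change was -0.99 ± 0.13 in shE2F1 (adjusted p = 0.000133), just under 2-fold and so not called. It was -0.05 ± 0.13 in shEZH2 (adjusted p = 0.743), and the knockdowns differed by 0.94 ± 0.13, with shEZH2 higher (adjusted p = 0.000102).

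CDKN1C, the gene of p57, moved in opposite directions in the knockdowns. It is a maternally expressed gene of the imprinted cluster on chromosome 11 and lies at chr11:2883213-2885775 on the minus strand. Its CPM were 14.7 and 8.1 in control shRNA, 17.8 and 27.5 in shEZH2, 5.9 and 4.6 in shE2F1, 8.9 and 10.5 in DMSO and 11.7 and 13.8 in GSK126. In CPM the groups did not overlap within the hairpin arm, but control shRNA and shEZH2 were each spread by more than 1.5-fold between replicates. In TPM, which allows for transcript length, shE2F1 (8.02 and 6.87) overlapped control shRNA (15.4 and 7.91). The shEZH2 libraries stood above both groups in TPM, at 19.6 and 29.5. The log2 change was 0.98 ± 0.27 in shEZH2 (adjusted p = 0.0109) and -1.13 ± 0.30 in shE2F1 (adjusted p = 0.0105). The direct difference between the knockdowns was called, at 2.10 ± 0.29 with shEZH2 higher (adjusted p = 0.000111, 4.29-fold). Leaving out control shRNA replicate 1 or 2 gave 1.48 or 0.62 in shEZH2 and -0.63 or -1.48 in shE2F1. The adjusted p was 0.059 in shEZH2 without control shRNA replicate 2 and 0.11 in shE2F1 without control shRNA replicate 1. Leaving out shEZH2 replicate 2 gave 0.64 in shEZH2, at an adjusted p of 0.11, and leaving out shE2F1 replicate 2 gave -0.96 in shE2F1, at an adjusted p of 0.091. The direct difference was 1.76 or more with any of the 4 knockdown libraries left out. The GC and length correction gave 1.59 in shEZH2.

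**Figure D4:**
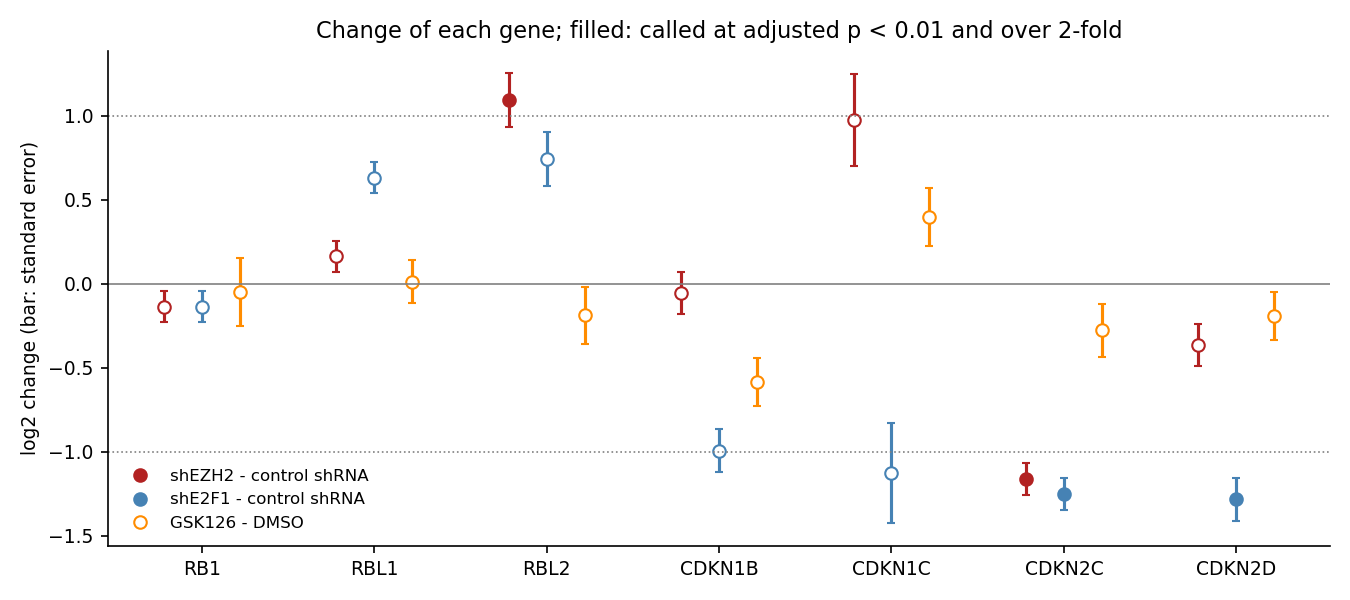
Log2 change ± SE (vertical axis) of the 7 tested genes in shEZH2 and shE2F1 against control shRNA and in GSK126 against DMSO, with filled points for called genes and dotted lines at a 2-fold change. RBL2 and CDKN2C are filled in shEZH2, and CDKN2C and CDKN2D in shE2F1.

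In counts, 1 of the 7 tested genes was called higher in shEZH2 (RBL2) and 1 lower (CDKN2C), where 7.52% and 10.7% of all 15373 genes tested were called in these directions. At an adjusted p under 0.05, 2 rose and 2 fell, against 27% and 28.6% of all genes. In shE2F1, 2 of 7 were called lower and none higher, against 5.96% and 5.6% of all genes, and at an adjusted p under 0.05, 4 fell and 2 rose, against 23.7% and 21.1%. Between the knockdowns, 1 of 7 was called higher in shEZH2 and none lower, against 10.4% and 12.9%, and the looser threshold of 0.05 gave 3 higher and 1 lower, against 29.7% and 30.6%. With so many genes moving, shares of 7 genes cannot be set apart from these backgrounds. The median log2 change of the 7 genes was -0.05 in shEZH2, -0.99 in shE2F1 and 0.35 between the knockdowns, beside -0.02, 0.00 and -0.02 over all genes tested.

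GC content was tied to the change in shEZH2 and not in shE2F1. When genes were ranked by GC content into 5 classes of equal size, the median log2 change in shEZH2 was 0.22 in the class of lowest GC and -0.42 in that of highest GC, against 0.01 and 0.01 in shE2F1. CDKN1C, CDKN2C and CDKN2D hold 63.8%, 58.1% and 61.2% GC in their longest transcript, within the class of highest GC. RB1 and RBL1 hold 37.1% and 40.0%, within the class of lowest GC, and RBL2 and CDKN1B hold 43.1% and 42.7%.

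GSK126 left every tested gene of the brake under the threshold in the fit without blocks. None of the 7 passed an adjusted p of 0.05 in edgeR, nor in DESeq2, and 1 of the 7 (CDKN1B) had an unadjusted p under 0.05 in each. The background was 0% of 14632 genes in edgeR, with 577 genes at an unadjusted p under 0.05, whereas DESeq2 had 19 genes at an adjusted p under 0.05. The replicates of the drug arm moved together, with a correlation of 0.62 over 11919 genes between the replicate difference in DMSO and that in GSK126, against -0.07 to 0.22 for the other pairs of groups. Differences within a replicate number are therefore given.

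Within replicates, CDKN1B was lower in GSK126 than in DMSO by nearly the same ratio. The log2 ratio was -0.57 in replicate 1 and -0.60 in replicate 2. The estimate was -0.59 ± 0.14 without a block (adjusted p = 0.954) and -0.59 ± 0.06 with the replicate as a block (adjusted p = 1.7e-09). The blocked fit leaves 1 residual degree of freedom. CDKN1C was higher, with log2 ratios of 0.40 and 0.39 and a blocked adjusted p of 0.0219. CDKN2C was lower, with -0.27 and -0.28 and a blocked adjusted p of 0.000620.

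The other 4 genes did not pass in the blocked fit. CDKN2D had log2 ratios of -0.23 and -0.16 (adjusted p = 0.103), and RBL2 of -0.19 and -0.18 (adjusted p = 0.0767). RB1 had -0.10 and 0.03, and RBL1 0.05 and -0.03, so that each changed sign between replicates. With the block, 1 of 7 genes rose and 2 fell, against 6.3% and 7.3% of all genes, and none of the 7 exceeded 2-fold.

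**Figure D5:**
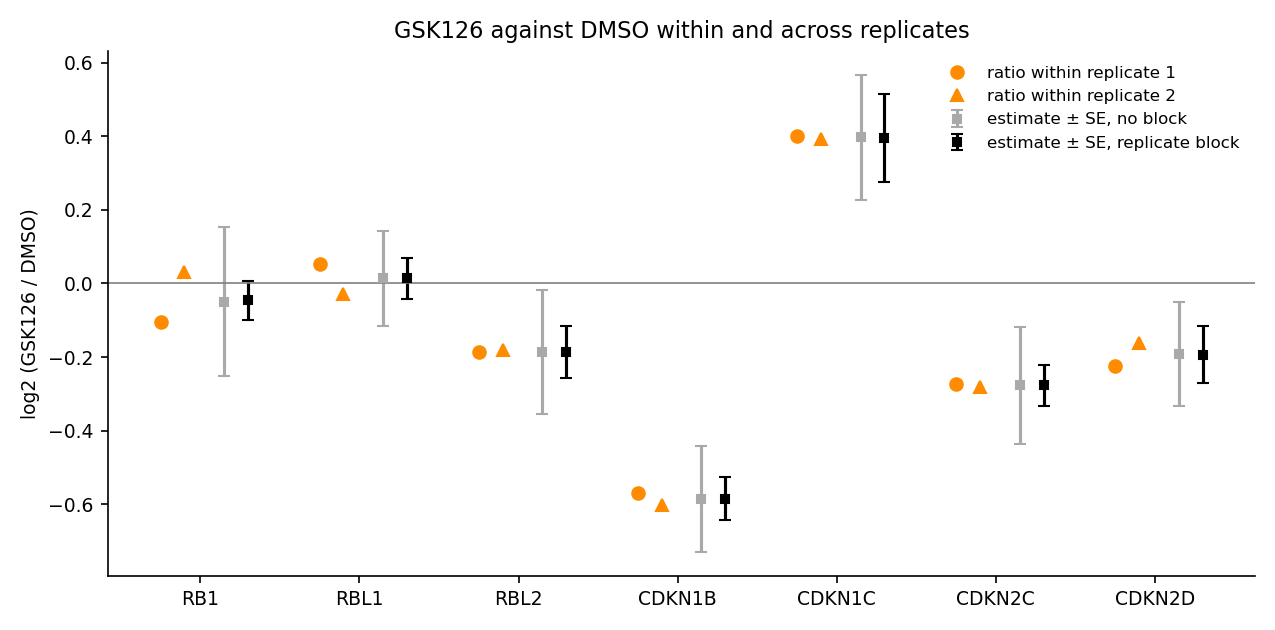
Log2 ratio of GSK126 to DMSO (vertical axis) of the 7 tested genes within replicate 1 and replicate 2, beside the edgeR estimate ± SE without and with the replicate as a block. CDKN1B sits at -0.57 and -0.60 within the replicates, and the block narrows its SE from 0.14 to 0.06.

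The effect of EZH2 knockdown and that of its inhibitor differed for RBL2. The log2 change in shEZH2 minus that in GSK126 was 1.29 ± 0.25 (adjusted p = 0.00186), which was called. Without shEZH2 replicate 2 it was 1.148 at an adjusted p of 0.013. CDKN2C differed by -0.87 ± 0.19 (adjusted p = 0.00337) and CDKN1B by 0.54 ± 0.20 (adjusted p = 0.0481). The value for CDKN1B ranged from 0.34 to 0.71 with each library left out in turn, and its adjusted p was above 0.05 without either control shRNA library, shEZH2 replicate 2, DMSO replicate 1 or GSK126 replicate 2. Of the 7 genes, 1 was called higher and none lower, against 5.13% and 8.67% of 15773 genes, and the looser threshold of 0.05 gave 2 higher and 1 lower, against 16.9% and 19.7%.

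This difference rests on a control for each arm, and the controls did not stand at the same level. RBL2 was at 24.6 and 17.3 CPM in control shRNA and at 39.8 and 32.5 in DMSO. CDKN2C was at 101.6 and 98.6 CPM in control shRNA and at 52.8 and 65.1 in DMSO. For both genes the knockdown libraries were nearer to DMSO than to control shRNA, save that shEZH2 was above DMSO for RBL2. Hairpin delivery, selection and drug solvent differ between the arms and cannot be told apart from them.

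The genes on which the brake acts were taken as lists. Over all genes tested, 7.52% were called higher and 10.7% lower in shEZH2, and 5.6% and 5.96% in shE2F1. At an adjusted p under 0.05, 27% rose and 28.6% fell in shEZH2, and 21.1% and 23.7% in shE2F1. In shEZH2 against shE2F1, 10.4% were called higher and 12.9% lower. These shares apply to each list below, and list counts near them cannot be set apart from them. Of 10 E2F and DP factors, 4 were called lower in shEZH2 and 1 higher, with a median log2 change of -0.07 over the list. E2F2 (-2.64 ± 0.32), E2F8 (-1.82 ± 0.15) and E2F5 (-1.68 ± 0.29) fell beside E2F1, and E2F7 was called higher (1.298 ± 0.09). In shE2F1, 3 of 10 were called lower and none higher, with a median of -0.33. These were E2F1 itself, E2F5 (-2.13 ± 0.29) and E2F4 (-1.005 ± 0.10). E2F4 was just over 2-fold, and fewer of the list were called in some fits with a library left out. E2F4 and E2F5 are the E2F factors that bind p107 and p130. At an adjusted p under 0.05, 4 rose and 5 fell in shEZH2, and 5 fell in shE2F1.

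Of 18 genes of DNA replication that E2F drives, 8 were called lower in shEZH2 and none higher, and 17 of 18 fell at an adjusted p under 0.05. The list had a median log2 change of -0.73. TK1, thymidine kinase, had the lowest value (-2.24 ± 0.15), followed by RRM2, a subunit of ribonucleotide reductase (-1.69 ± 0.22), MCM6, a subunit of the replicative helicase (-1.68 ± 0.18), and TYMS, thymidylate synthase (-1.41 ± 0.14). In shE2F1, RRM2 alone was called (-2.42 ± 0.23), with 7 that fell and 2 that rose at an adjusted p under 0.05 and a median of -0.19. TK1 was at -0.08 ± 0.14 there. In direct comparison, 6 of the 18 were called lower in shEZH2 than in shE2F1, with a median of -0.68, and 3 without shE2F1 replicate 1.

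Of 10 cyclins and kinases of G1 and their activator CDC25A, 2 were called lower in shEZH2, namely CCND1, cyclin D1 (-1.25 ± 0.10), and CDK2 (-1.10 ± 0.11). CCND2, cyclin D2, was called higher (3.46 ± 0.40), from 0.37 and 0.30 CPM in control shRNA to 3.46 and 4.14. In shE2F1, CDK6, the target of INK4 inhibitors, was the gene called, lower by a log2 change of -1.22 ± 0.11. The median was -0.19 in shEZH2 and 0.00 in shE2F1. At an adjusted p under 0.05, 4 rose and 4 fell in shEZH2, and 2 rose and 4 fell in shE2F1.

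The 7 genes of the ubiquitin ligases that degrade p27 were compared beside CDKN1B. None was called in shEZH2, with 2 that rose and 1 that fell at an adjusted p under 0.05 and a median of 0.04. SKP2, the subunit that recognises p27, rose there by 0.97 ± 0.10. In shE2F1, SKP2 (-1.01 ± 0.11) and its cofactor CKS1B (-1.09 ± 0.12) were called lower, 3 of 7 fell at an adjusted p under 0.05, and the median was -0.14. Without control shRNA replicate 2 neither was over 2-fold, at -0.87 and -0.99, and without shE2F1 replicate 1 SKP2 was at -0.99. RNA does not measure p27 protein.

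Partners of the pocket proteins were compared as well. Of 7 genes of MuvB, B-MYB and FOXM1, MYBL2 was called lower in shEZH2 (-1.19 ± 0.18), with 2 that rose and 2 that fell in all and a median of -0.05. MYBL2 was under 2-fold with the GC and length correction (-0.73) and without shEZH2 replicate 2 (-0.84). In shE2F1 the MuvB subunit genes LIN37 (1.27 ± 0.17) and LIN52 (-1.59 ± 0.18) were called in opposite directions, 3 of 7 rose and 2 fell, and the median was 0.12. With an offset for effective length neither was called, with LIN37 at 0.96 and LIN52 at -0.52 (adjusted p = 0.0784). The estimated length of LIN52 was 2713 and 2413 bases in control shRNA and 1248 and 1338 in shE2F1, and its TPM was 7.51 and 7.42 against 5.56 and 6.52. Of 11 chromatin partners of RB, none was called in shEZH2, with 3 that rose and 3 that fell and a median of -0.01. In shE2F1 the deacetylase genes HDAC3 (-1.46 ± 0.10) and HDAC1 (-1.04 ± 0.09) and the methyltransferase gene SUV39H2 (-1.25 ± 0.15) were called lower, 3 of 11 rose and 5 fell, and the median was 0.04.

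CDKN1C was set beside 7 genes of its imprinted cluster, of which 6 were tested. PHLDA2, a growth-restraining gene of the placenta, was called lower in shEZH2 (-3.16 ± 0.14), and was the only one of the 6 to pass there, with a median of 0.13. In shE2F1, SLC22A18 was called higher (2.25 ± 0.20), 2 of 6 rose and 2 fell at an adjusted p under 0.05, and the median was 0.23. KCNQ1OT1, the antisense RNA of the cluster, was at 0.32 ± 0.18 in shEZH2 and rose by 0.70 ± 0.18 in shE2F1.

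In GSK126 none of these lists held a called gene without the block, and no gene of all those tested was called. With the block CCND2 was called, at 1.94 on the log2 scale, among 68 of 14632 genes called in all. Medians of the 7 lists lay between -0.06 and 0.09 without the block, beside -0.01 over all genes. The 18 replication genes ranged from -0.04 to 0.17.

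The length that RSEM assigns to a gene, a mean of its transcript lengths weighted by their estimated abundance, varied most for CDKN1C, by 31.2% between the lowest and highest library. It was 1550 and 1559 bases in control shRNA, 1641 and 1622 in shEZH2, and 1328 and 1251 in shE2F1. The shE2F1 libraries had the lowest values of all 10, on 124 and 85 counts. In DMSO it was 1530 and 1437 bases, and in GSK126 1525 and 1620. The range was 22.2% for CDKN2C, 16.9% for RBL2, and 9.1% or less for the other tested genes, for which the groups' values were not compared. The posterior SD that RSEM gives for a count was 0 for every member in all 10 libraries. RBL2 overlaps AKTIP on the other strand, RBL1 and CDKN2C each overlap an unnamed antisense gene, and whether counting used the strand is not stated.

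For the 3 genes with the widest range between groups, the genes of most similar pattern were sought among 9377 genes, by the root mean square difference of centred log2 CPM over the 10 libraries. For CDKN1C these were NCK2 (0.24), EVC (0.25) and CALB2 (0.25). For CDKN2D they were JADE2 (0.12), CKS1B (0.13) and CD82 (0.14), and for CDKN2C they were PPME1 (0.16), UBE2S (0.18) and PHF19 (0.18).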

How the data were processed

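The 18 sample records held 10 distinct libraries, since 8 records repeated another value for value. Per the methods and the submitters' processing notes, the authors aligned reads of strand-specific poly(A) libraries to hg38 with STAR (2.7.2b in the notes, another version in the methods) and quantified genes with RSEM 1.3.1. The deposited expected count per gene was rounded and tested, and the deposited TPM was used for levels between genes and for shares. RSEM's length, effective length and posterior SD of the count were used as deposited. GENCODE release 44 gave symbols and positions for 62625 (99.9%) of 62703 genes.

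Low counts were removed with filterByExpr and libraries scaled by TMM in edgeR 4.0.16 (R 4.3.3). Quasi-likelihood tests were adjusted by Benjamini-Hochberg over all genes tested. A model held the 6 hairpin libraries, another the 4 drug libraries, and a model of all 10 tested the difference of effects. Thresholds were an adjusted p of 0.01 and a 2-fold change, with 0.05 as a second level. Alternatives were DESeq2 1.42.0, its size factors, no filter, a mean of at least 50 counts, a replicate block, a spline correction for GC content and length, an effective length offset, other sets of libraries, and leaving out each library. Labels give replicate numbers. The drug pair correlated by number at 0.62, and the blocked value is given there, although 2 pairs and the labels do not establish a shared batch.

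Libraries of 13198932 to 20055550 counts allow 0.150 to 0.227 CPM at a count of 0 (3 counts, counting error only). Members and lists were chosen with earlier results of these data known. Named genes were all members, the hairpin targets, called genes of each list with at most 4 given values by size of change, and, for 3 members with the widest range, the 3 genes of most similar centred log2 CPM (mean of at least 200 counts, 0.5 added to the CPM). Values shown for other list members, such as TK1, SKP2 and KCNQ1OT1 in the comparison where they were not called, were added after the values were seen. Each fitting script was tested on simulated data. Hairpin sequences are not printed, and a gene that the rule selected is left out of the text.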

Additional observations from a re-analysis of the deposited data

Results flagged for a closer look

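RBL2 stood out because its change differed between the knockdown of EZH2 and the inhibitor, by 1.29 ± 0.25 on the log2 scale (edgeR adjusted p = 0.00186), with both shEZH2 libraries above both control shRNA libraries and both GSK126 libraries below the DMSO library of the same number. Control shRNA was lower than DMSO for this gene, and the part of that difference in the result was not tested.

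CDKN1C stood out because it differed between the knockdowns, by 2.10 ± 0.29 on the log2 scale (edgeR adjusted p = 0.000111). In CPM both shEZH2 libraries were above and both shE2F1 libraries below both control shRNA libraries. In TPM shE2F1 (8.02 and 6.87) overlapped control shRNA (15.4 and 7.91). Its estimated transcript length was also lowest in shE2F1. The alternative fits included an offset for effective length, but the value of that fit for CDKN1C is not given here.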

How the results depend on the processing

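Of 497 alternative values of the 7 tested genes, 442 kept their direction and their side of the call threshold, 25 gained a call, 7 lost it and 23 changed sign. Of the 7 genes, 2 were called in shEZH2, and 1 with the GC and length correction, alone or with the replicate block. With the correction alone RBL2 and CDKN2C both lost their calls, and the gene called was CDKN1C. Fewer or more were called with a library left out, and 4 passed at an adjusted p under 0.05 with no fold. In shE2F1, 2 became 4 with the GC and length correction, alone or with the block. The count was 3 with DESeq2, no filter, the effective length offset, only the 4 libraries compared, or all 10 in one fit. It was the same or higher with a library left out, and 6 at the looser threshold. Between the knockdowns, 1 became 2 with either correction, 1 to 3 with a library left out, and 4 at the looser threshold. For the difference from GSK126, 1 became 0 to 2 with a library left out and 3 at the looser threshold. The replicate block changed none of these counts by over 1.5 times, and gave 3 in shEZH2, where CDKN1C stood at 1.01. In GSK126 it left 0 of 7 over 2-fold, with 68 genes called among all against 0 without it and 11 in DESeq2.

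Signs that changed were mostly of values near 0. In shEZH2, RBL1 went to -0.0739 with the GC and length correction with or without the block, and CDKN2D to 0.168 (0.161 with the block). CDKN1B there ranged from -0.235 to 0.114 with a library left out. Between the knockdowns, RB1 went to 0.0115 with DESeq2, 0.0114 with its size factors, 0.047 with effective lengths and 0.0043 over all 10 libraries, and ranged from -0.0345 to 0.0434 with a library left out. In GSK126, RB1 ranged from -0.274 to 0.227 and RBL1 from -0.0888 to 0.116 with a library left out, and RBL1 went to -0.00066 with the GC correction and -0.0089 with effective lengths. In the difference from GSK126, RB1 ranged from -0.344 to 0.138 with a library left out. There RBL1 went to -0.062 with the GC correction (-0.0624 with the block) and CDKN2D to 0.386 (0.378 with the block). The causes were not tested. Pocket protein shares from CPM per effective length equal those from TPM by construction and are no check of them. The expected counts of CDKN2A and CDKN2B were 0 before rounding too.

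Counts of called genes in the lists moved by over 1.5 times in 57 of 532 alternatives, 25 of them by the threshold alone and 14 by leaving out a library. In shE2F1 the p27 ligase list went from 2 to 1 with no filter or with a mean of at least 50 counts, and the MuvB list from 2 to 0 with effective lengths. With the GC and length correction, MYBL2 lost its call and the p27 ligase list went from 0 to 1 in shEZH2. With 2 libraries a group, small differences were not detectable.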
